A study of Homo sapiens with 12 samples.

Results

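Gene expression was compared between the 6 day 6 arrays of a series of 12: 3 arrays labelled as doxycycline-treated (Dox-labelled) and 3 labelled as retinoic acid-treated (RA-labelled), chosen by their titles. All samples were H9 cells, an established human embryonic stem cell line, at passages 28 to 35. Every sample, the untreated ones included, carried a Tet-on construct, in which doxycycline switches on the orphan nuclear receptor GCNF, encoded by NR6A1. Both day 6 groups had differentiated in DMEM/F12 with 15% fetal bovine serum, per the labels, with either 1 µg/ml doxycycline or 1 µM retinoic acid for 6 days. The other 6 arrays held undifferentiated cells in mTeSR (d0) without doxycycline or with 1 µg/ml for 4 days, 3 arrays each, and entered the fit as a source of spread and for one look-up described last. Every day 6 group received an agent, so a difference at day 6 can come from either side, and d0 values are given where they help to place it. The submitters stated an interest in genes regulated by GCNF during differentiation. The labels do not say whether the line is 1 clone.

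Retinoic acid is a derivative of vitamin A that binds the receptors RARA, RARB and RARG, which pair with RXR proteins and switch on genes near their binding sites. Among the textbook target genes are those that limit the signal itself, such as the CYP26 enzymes that degrade retinoic acid, and the HOX genes at the 3′ end of each cluster, which set positional identity in the hindbrain. GCNF binds repeats of the same unit placed head to tail and is known as a repressor of pluripotency genes, POU5F1 among them, in differentiating stem cells.

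Values are scaled probe set intensities, fold changes are differences of log2(intensity + 16), and a gene is called at an adjusted p under 0.05 in limma (Benjamini-Hochberg over 19775 genes). Higher always means higher in the Dox-labelled arrays, and lower means lower there. Values after ± are SD for intensities and SE for log2 changes, and n = 3 arrays per group throughout. The median intensity of the day 6 arrays was 64.2 to 69.2, and arrays of one group correlated at r = 0.981 to 0.982, against 0.965 to 0.968 between the groups. The ratio of 3′ to 5′ probe sets, a sign of RNA quality, was 2.59 ± 0.29 in RA-labelled and 2.33 ± 0.058 in Dox-labelled arrays for ACTB, and 1.35 ± 0.082 and 1.46 ± 0.023 for GAPDH; its part in the results was not tested. In bulk RNA, fewer cells of a type and less RNA per cell cannot be told apart. Replicates are called biological in the labels, with no word on separate cultures, and a p-value here therefore reflects the scatter of 3 arrays a group.

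Retinoid marker genes ran against the day 6 labels, and so did part of the NR6A1 probe sets. Genes that retinoic acid is known to induce were far higher in the Dox-labelled arrays, and 3 of the 4 probe sets made from full NR6A1 records, which rose with doxycycline at d0, were higher in the RA-labelled ones. The 3 NR6A1 probe sets made from expressed sequence tags went with the labels. They rose with doxycycline at d0 (0.62, 0.85 and 0.97) and were higher in the Dox-labelled arrays (0.99, 0.79 and 0.89). The deposited labels are kept here, and each direction below is tied to them. In all, 5120 of 19775 genes passed the test (25.9%). The Dox-labelled level was above the RA-labelled one for 2713 (13.7%) and below it for 2407 (12.2%). Those changed at least 2-fold were 764 higher (3.86%) and 380 lower (1.92%). The 3 arrays of one group lay entirely above those of the other for 8235 genes (41.6%), so the absence of overlap alone was common.

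Promoter sequences of 3 of the most changed retinoid genes are shown because they hold the kind of repeat that retinoic acid receptors (spacer of 5 bases) or GCNF (spacer of 0) are known to bind. The search took the unit AGGTCA and its variants, which were AGTTCA as well as GGTTCA as well as GGGTCA, any unit followed on the same strand by any other, on both strands, in RefSeq windows (GRCh38.p14) from 250 bases before to 50 after each annotated start. The 250 bases before the start are printed 5′ to 3′ on the gene's strand, with the repeat in capitals. The windows are RARB chr3:25428013-25428262 (plus strand), CYP26A1 chr10:93073643-93073892 (plus strand) and RARRES2 chr7:150341630-150341879 (minus strand).
RARB: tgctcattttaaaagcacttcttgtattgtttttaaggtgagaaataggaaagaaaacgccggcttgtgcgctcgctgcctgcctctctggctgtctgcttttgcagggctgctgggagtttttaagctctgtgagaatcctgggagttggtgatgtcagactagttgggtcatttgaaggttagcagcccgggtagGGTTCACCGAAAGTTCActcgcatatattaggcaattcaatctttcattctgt
CYP26A1: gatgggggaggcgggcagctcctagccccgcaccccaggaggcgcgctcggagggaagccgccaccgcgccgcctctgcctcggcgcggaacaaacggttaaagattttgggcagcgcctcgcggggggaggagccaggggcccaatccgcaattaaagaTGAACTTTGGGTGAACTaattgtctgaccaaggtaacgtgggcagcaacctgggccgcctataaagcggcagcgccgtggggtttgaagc
RARRES2: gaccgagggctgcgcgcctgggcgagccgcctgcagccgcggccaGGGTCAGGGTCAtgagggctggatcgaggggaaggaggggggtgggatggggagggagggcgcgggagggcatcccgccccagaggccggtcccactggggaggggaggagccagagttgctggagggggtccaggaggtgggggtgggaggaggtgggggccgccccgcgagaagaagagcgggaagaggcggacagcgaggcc

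The repeat with a spacer of 5 bases was rare, in 31 of 35116 windows (0.0883%). In RARB it lay 37 to 53 bases before the start, as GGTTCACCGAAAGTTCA. In CYP26A1 it lay 74 to 90 bases before the start on the opposite strand, where it reads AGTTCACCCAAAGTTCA. Among 15384 measured genes with a window, 15 held such a repeat, and 7 of the 15 were called higher and 0 lower. Among all 15384, 2179 (14.2%) were called higher and 1915 lower. Besides CYP26A1 and RARB, the ones of the 7 with at least a 2-fold change were BATF2, at 22 in RA-labelled and 59.5 in Dox-labelled arrays, and COL24A1, at 28.8 and 95.3. The repeat without a spacer was in 56 of 35116 windows (0.159%) and 25 measured genes, of which 5 were called higher and 3 lower. RARRES2 holds it as GGGTCAGGGTCA, 194 to 205 bases before the start. Spacers of 2 and 1, which retinoid receptor pairs can also bind, were searched as well: of 7 measured genes with the former 0 were called higher and 1 lower, and of 27 with the latter 4 were higher and 4 lower. The lower counts for spacers of 0, 2 and 1, and the higher count for 1, were near the shares of all 15384 genes. A match describes letters in a window and is no evidence of binding.

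Genes of retinoid metabolism and binding were mostly higher in the Dox-labelled arrays: 7 of 13 measured were higher, 1 lower and 5 not called, with a median log2 change of 1.03 beside 0.0 over all genes. CYP26A1, the enzyme that clears retinoic acid in the early embryo, read 312, 259.9 and 241 in the RA-labelled arrays and 30701, 29345 and 28736 in the Dox-labelled ones. The change was 6.70 ± 0.09 on the log2 scale (adjusted p = 2.65e-10), the largest rise of all called genes by the rule used here, and d0 lay between at 4494. CYP26B1, its paralog, read 32.9, 54.6 and 52.2 against 5412, 5090 and 4722 (6.36 ± 0.23, adjusted p = 8.65e-08). The other probe set of CYP26B1 was not called. The RA-labelled mean of CYP26B1, 46.6, was near the d0 mean of 52.6, whereas that of CYP26A1 was below its d0 mean.

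Proteins that handle retinol and retinal followed the same direction. DHRS3, which reduces retinal back to retinol, read 617, 634 and 641 in RA-labelled and 5324, 5623 and 5648 in Dox-labelled arrays (3.10 ± 0.08, adjusted p = 5.59e-09). CRABP2, the carrier that brings retinoic acid to its receptors, read 1891, 2278 and 1804 against 14695, 15521 and 14196 (2.89 ± 0.10, adjusted p = 7.65e-08). LRAT, which esterifies retinol for storage, rose from 50.3 to 319 (2.35 ± 0.15, adjusted p = 2.68e-06), and STRA6, a cell-surface transporter of retinol, from 131 to 389.8 (1.5 ± 0.17, adjusted p = 0.000129). RDH10, which makes retinal, was 0.82 ± 0.11 higher. The genes of the enzymes that make retinoic acid from retinal were not called: ALDH1A1 read 83.3 and 60.3, ALDH1A2 11.5 and 3.36 and ALDH1A3 91.4 and 68.7. RDH11 was the 1 member called lower (-0.60 ± 0.16, adjusted p = 0.0208), a call lost when RA-labelled replicate 3 (adjusted p = 0.0734) or Dox-labelled replicate 1 (0.0703) or 3 (0.0586) was left out.

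**Figure D1:**
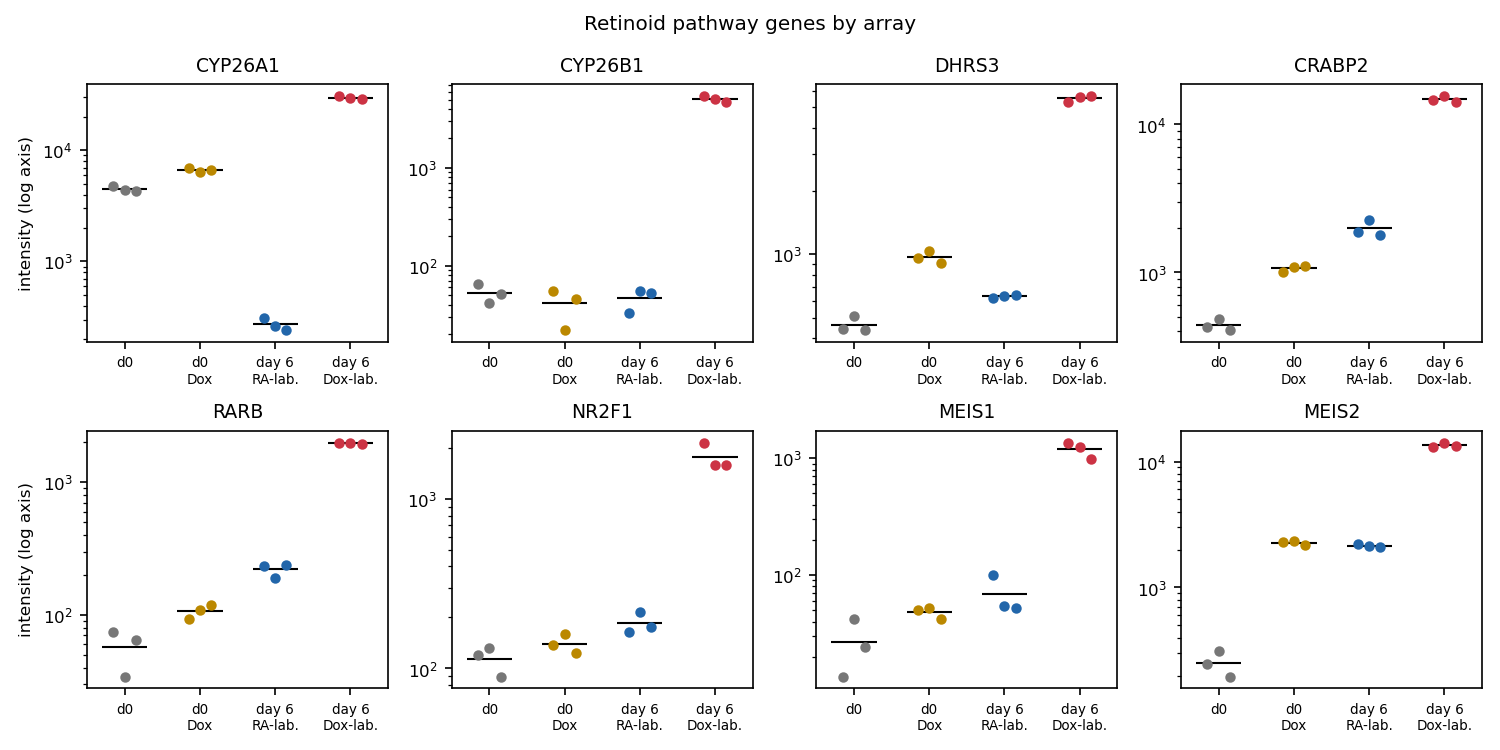
Intensity (log axis) of 8 retinoid pathway genes on each array of the 4 groups, with 1 point per array and a line at the group mean. In each of the 8 panels the 3 Dox-labelled day 6 arrays sit above every other array; CYP26A1 is the gene whose RA-labelled arrays (241 to 312) fall below d0.

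Of 20 genes listed as receptors or targets of retinoic acid, 13 were higher, each by at least 2-fold, and 0 lower, with a median log2 change of 1.54. The 13 include CYP24A1, an enzyme gene of vitamin D breakdown. RARB, the receptor gene that retinoic acid itself induces and whose promoter is printed above, read 233, 189 and 239 in RA-labelled and 1989, 1967 and 1957 in Dox-labelled arrays (3.08 ± 0.19, adjusted p = 2.76e-06). It has 4 other probe sets, of which 1 was called, in the same direction. RARA went from 318 to 648 (1.01 ± 0.18, adjusted p = 0.00272). RARG read 15.7, 24.2 and 19.1 against 109, 25.5 and 60.2, so its Dox-labelled arrays spread widely, and its call (adjusted p = 0.0497) was lost without any single array other than Dox-labelled replicate 2, with adjusted p up to 0.147. The partner receptors RXRA (716 and 598), RXRB (1182 and 979) and RXRG (18.5 and 22.5) were not called.

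Called genes of that list with other roles showed the same order without overlap between the groups. RARRES2, which encodes the secreted chemokine chemerin, read 17.4, 17.8 and 13 against 1336, 1212 and 1429 (5.39 ± 0.12, adjusted p = 3.53e-09). At d0 it stood at 1165, so the low side was the RA-labelled group. CYP24A1, the enzyme that degrades active vitamin D, read 22.8, 13.9 and 4.63 against 886, 764 and 959 (4.93 ± 0.28, adjusted p = 1.58e-06); its RA-labelled mean of 13.8 is below the added 16, which limits the size of the fitted change. The orphan receptor gene NR2F1 read 165, 215 and 175 against 2153, 1585 and 1587 (3.15 ± 0.17, adjusted p = 9.79e-07). The cofactor NRIP1 went from 2603 to 8089 (1.65 ± 0.13), the repressor ZNF703 from 279 to 2799 (3.29 ± 0.20) and the crosslinking enzyme gene TGM2 from 469 to 1302 (1.44 ± 0.09). CDX1 (28.1 and 26.9), CDX2 (20.6 and 6.19) and ICAM1 (174 and 252) were among the 7 not called.

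HOX genes near the 3′ end of the clusters were higher in the Dox-labelled arrays and those further towards the 5′ end were mostly not called. In paralog groups 1 to 5, 8 of 10 measured genes were higher and 0 lower (median log2 change 3.14), and in groups 6 to 13, 2 of 18 were higher and 0 lower (median 0.07). HOXB1, which marks hindbrain rhombomere identity, read 28.9, 43.8 and 22.6 against 1072, 1009 and 786 (4.36 ± 0.20, adjusted p = 3.09e-07). Its other probe set was not called. HOXA2 read 17.8, 19.4 and 22.7 against 494, 496 and 584 (3.91 ± 0.22, adjusted p = 1.32e-06), and HOXB4 26.2, 15.3 and 17.1 against 451, 425 and 365 (3.60 ± 0.35, adjusted p = 5.34e-05). The groups did not overlap for these 3 genes, and d0 was low for each, at 7.68, 16.3 and 35.0.

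HOXB2 (289 to 2661, 3.14 ± 0.15), HOXB3 (154 to 1830, 3.46) and HOXC4 (26.8 to 359, 3.13) had changes of like size, and HOXB5 went from 62.1 to 407 (2.45). The 2 called genes of groups 6 to 13 were HOXB6 (48.3 to 135, 1.19) and HOXB7 (51.4 to 133, 1.17). HOXB6 lost its call without RA-labelled replicate 1 or 2 or Dox-labelled replicate 1 or 2 (adjusted p 0.0634 to 0.097), and HOXD1, of group 1, without RA-labelled replicate 2 or 3 or Dox-labelled replicate 1 or 2 (0.0645 to 0.0954). Of the HOXA cluster, HOXA2 alone had a probe set naming it and no other gene, so HOXA position could not be followed. The HOX cofactor genes MEIS1 (99.8, 54.7 and 52.3 against 1357, 1249 and 993) and MEIS2 (2195, 2136 and 2113 against 13029, 14104 and 13244) were higher by 3.87 ± 0.26 and 2.64 ± 0.13.

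**Figure D2:**
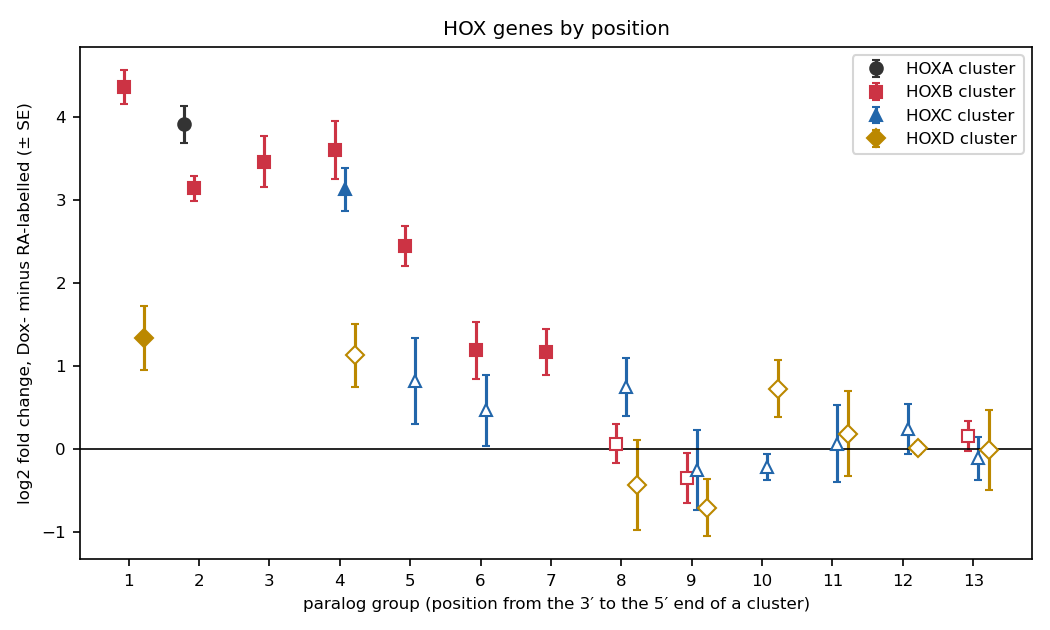
Log2 fold change (Dox-labelled minus RA-labelled, ± SE) of each measured HOX gene against its paralog group, with a symbol per cluster; filled symbols were called. Groups 1 to 5 have a median of 3.14 and groups 6 to 13 of 0.07.

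Genes of the anterior neural plate did not rise with the HOX genes. Of 21 anterior neural genes 2 were higher (9.52%), 3 lower (14.3%) and 16 not called, beside 13.7% and 12.2% of all genes. OTX2, a forebrain and midbrain factor that is also active in stem cells, read 366, 393 and 344 in RA-labelled and 70.2, 107 and 82.2 in Dox-labelled arrays (-1.92 ± 0.12, adjusted p = 2.23e-06), both far below d0 (2526). ZIC2 read 747, 615 and 764 against 217, 225 and 255 (-1.54 ± 0.09, adjusted p = 2.26e-06). PAX6 was higher (27.6 to 93.5, 1.39). Of 14 hindbrain and spinal cord genes, 3 were higher and 0 lower, all by 2-fold or more: IRX3 (175, 253 and 256 against 5203, 4165 and 5158; 4.33 ± 0.24), IRX5 (56.2 to 270, 2.0 ± 0.16) and the motor neuron factor ISL1 (65.6 to 443, 2.50 ± 0.16). ISL1 is also a gene of cardiac progenitors and amnion, and the other hindbrain genes, such as GBX2 (57.3 and 33.7) and EN2 (31.6 and 19.8), were not called.

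Neuronal genes were split. Of 24, 7 were higher (29.2%), 3 lower (12.5%) and 14 not called, beside 13.7% and 12.2% of all genes. The neurofilament gene NEFM read 303, 272 and 260.2 against 4784, 4760 and 4891 (4.04 ± 0.12, adjusted p = 1.64e-08), though its other probe set was not called, and NEFL went from 1064 to 3304 (1.62 ± 0.08) with both of its other probe sets called the same way. The proneural genes NEUROG1 (18.8 and 17.9), NEUROG2 (3.61 and 5.55) and ATOH1 (6.57 and 6.52) were near or under 16 in both groups. The synaptic gene SYT1 (3836 to 2141, -0.84) and the adhesion gene NCAM1 (822 to 514, -0.66) were lower, and STMN2 (10691 and 10035) and DCX (113 and 109) were not called.

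NR6A1 was read by 7 probe sets, which did not go one way. The probe set made from the RefSeq mRNA record of NR6A1 read 355, 395 and 258 in RA-labelled arrays and 31.6, 14.5 and 41.6 in Dox-labelled ones (-2.99 ± 0.30, adjusted p over all 54675 probe sets = 0.000109). The same probe set stood at 26.8 at d0 and 615 at d0 with doxycycline. Of 3 further probe sets from NR6A1 records, 1 went from 566 to 176 (-1.61 ± 0.15) and another from 406 to 166 (-1.21 ± 0.14), while the last (13.2 and 7.94) was not called. The other 3, made from expressed sequence tags, were higher by 0.89, 0.99 and 0.79, and each had fallen from its d0 level in both day 6 groups. The gene-level value of NR6A1 rests on a probe set of the last kind (528 to 1009, 0.89), and its sign turned with the mean over its probe sets (-0.47, adjusted p = 0.00625).

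**Figure D3:**
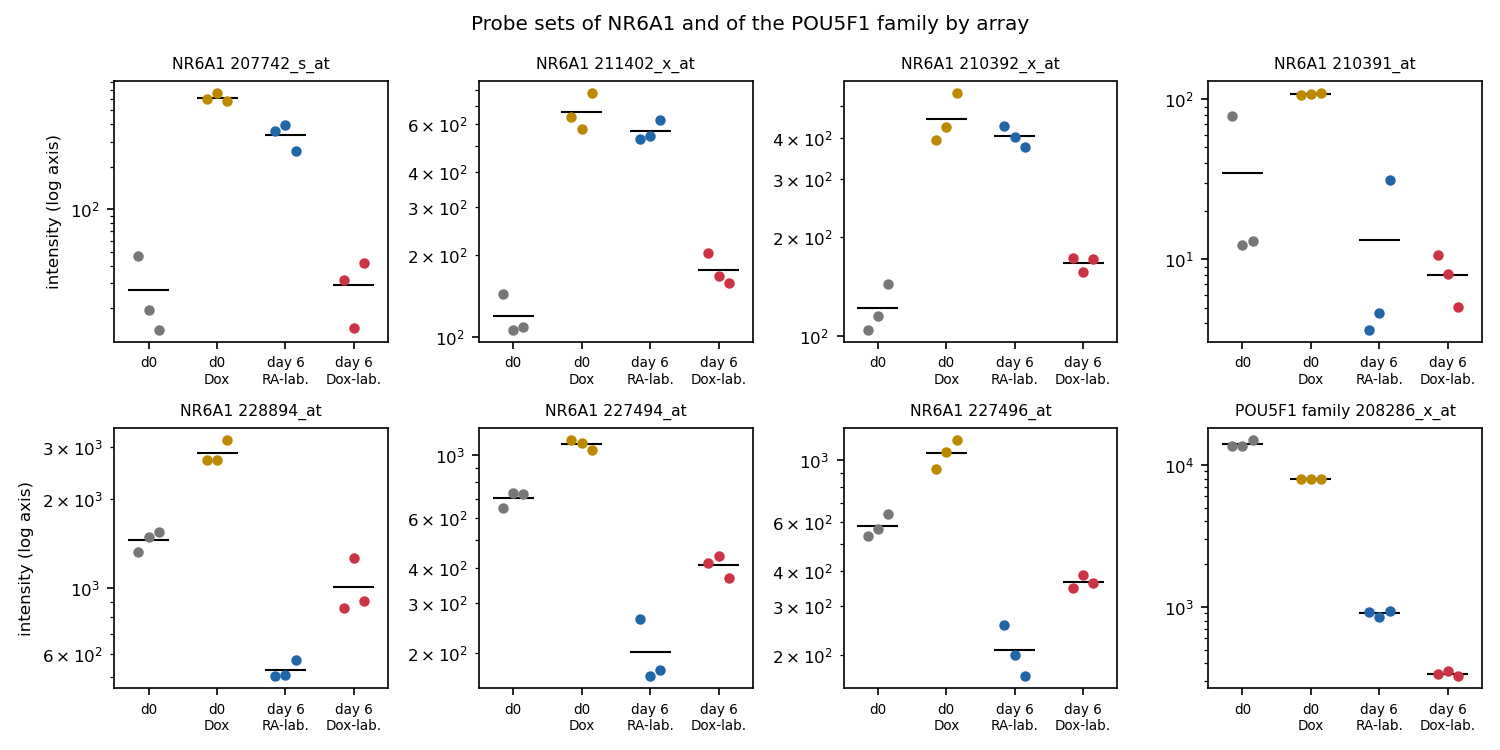
Intensity (log axis) per array of the 7 NR6A1 probe sets and, in the last panel, of a probe set shared by POU5F1 and its copies, with lines at the group means. The first 3 panels have RA-labelled arrays near the d0 Dox arrays and Dox-labelled arrays near d0, while the first 3 panels of the lower row, from expressed sequence tags, have the Dox-labelled arrays above the RA-labelled ones.

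POU5F1, NANOG, PRDM14 and ZFP42 were lower in the Dox-labelled arrays. The first, the gene of OCT4, shares its probe sets with near-identical copies, so its values are uncertain: the probe set made from its own mRNA record went from 14001 at d0 to 901 in RA-labelled and 337 in Dox-labelled arrays (-1.38 ± 0.08, adjusted p = 3.88e-06). NANOG read 639, 594 and 686 against 39.9, 33.4 and 36.9 (-3.64 ± 0.08, adjusted p = 2.48e-09), from 11672 at d0. PRDM14, a regulator of naive pluripotency, read 258, 289 and 250.1 against 20.2, 7.41 and 14.7 (-3.25 ± 0.17, adjusted p = 7.46e-07). ZFP42, which encodes REX1, was lower by 1.31 ± 0.15, from 1904 to 756.

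Other stem cell genes were split. Of 29 pluripotency genes, 8 were higher, 8 lower and 13 not called, with a median of -0.06. The lower ones included SOX2 (-0.38 ± 0.10), DPPA2 (-0.43 ± 0.12), DPPA4 (-0.50 ± 0.09) and LEFTY1 (-1.14 ± 0.14). The calls of SOX2 and DPPA2 were lost without some single arrays, and that of DPPA4 with the mean over probe sets (adjusted p = 0.127). DNMT3B (1349 and 1164), SALL4 (1143 and 1332), TRIM71 (1894 and 1839) and TERF1 (2135 and 2045) were not called, although each was several-fold below d0. The RNA-binding genes LIN28A (7091 to 9447, 0.42) and LIN28B (4353 to 6269, 0.53) were higher, as were the surface genes EPCAM (5086 to 10552, 1.06), CD24 (11424 to 18232, 0.68) and PODXL (11730 to 20508, 0.81), which many epithelia also express.

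Among called genes the largest fall was that of the probe set annotated to MIR302B, part of the primary transcript of the miR-302 cluster of embryonic stem cells. It read 7499, 6301 and 6793 in RA-labelled and 281, 275 and 269.9 in Dox-labelled arrays (-4.56 ± 0.10, adjusted p = 2.48e-09), and 29036 at d0. The mature microRNAs were not measured here. Their RefSeq sequences (GRCh38.p14) are shown because the transcript carries 4 members with a common seed, bases 2 to 8, in capitals; all lie on the minus strand of chromosome 4, miR-302b-3p at chr4:112648489-112648511.
hsa-miR-302a-3p: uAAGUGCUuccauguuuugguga
hsa-miR-302b-3p: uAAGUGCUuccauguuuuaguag
hsa-miR-302c-3p: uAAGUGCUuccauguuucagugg
hsa-miR-302d-3p: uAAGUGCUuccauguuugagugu

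Among called genes whose groups did not overlap and that were at least as bright as the median gene, the 25 largest rises ran from 12.2-fold to 104-fold. Beside the retinoid and HOX genes they held several receptors and signals of the nervous system. CNR1, the cannabinoid receptor, read 79.2, 99.7 and 76.9 against 2879, 2435 and 2652 (4.73 ± 0.14, adjusted p = 1.64e-08), and its 3 other probe sets were called the same way. GFRA1, a receptor for glial cell line-derived neurotrophic factor, read 48.0, 8.93 and 7.40 against 911, 1094 and 1042 (4.94 ± 0.40). The glutamate receptor gene GRIA4 (7.73 to 346, 3.98), the axon guidance genes ROBO2 (82.2 to 1455, 3.95) and SEMA6D (176 to 2318, 3.61) and the extracellular matrix gene SPON1 (383 to 4855, 3.62) belonged to the same 25.

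Transcription factors among the 25 were NR5A2, IRX3, MEIS1, HOXB1, HOXA2 and RFX6. NR5A2, a nuclear receptor of endoderm and of early embryos that can bind at sites shared with GCNF, read 26.8, 24.0 and 20.3 against 1456, 1575 and 1506 (5.27 ± 0.10, adjusted p = 1.49e-09), with its 3 other probe sets called the same way; it stood at 347 at d0. RFX6, an endocrine pancreas factor, went from 7.46 to 279.7 (3.66). Secreted proteins were TFPI2, a protease inhibitor (1336, 1268 and 1135 against 18392, 18287 and 18646; 3.87 ± 0.07), IGFBP6 (746 to 9376, 3.62) and WNT4 (11.1 to 344, 3.76). The remaining members were LINC02381 (49.9 to 2295), CORIN (34.2 to 752), AQP11 (216 to 3909), RIPPLY3 (66.7 to 1205) and KLHL14 (15.7 to 416). Of the 25, 15 had other probe sets; in 11 at least 1 of those was called the same way and in 0 the other way.

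The 25 largest falls ran from 4.62-fold to 23.6-fold. Other probe sets existed for 15 of the 25, and in 10 at least 1 of those was called the same way and in 0 the other way. For DYRK3, LOXL4, DPYD, LDB2 and PSG5 no other probe set was called. After MIR302B came GALNT16, an enzyme that starts O-linked glycans, which read 8231, 9505 and 8713 in RA-labelled and 386, 362 and 363 in Dox-labelled arrays (-4.51 ± 0.09, adjusted p = 2.48e-09). GREM1, a secreted blocker of BMP, read 11192, 11410 and 10901 against 678, 502 and 755 (-4.10 ± 0.15, adjusted p = 8.65e-08). Each was far above d0 in the RA-labelled arrays, GALNT16 at 148 and GREM1 at 1783. Neural adhesion genes NEGR1 (564 to 36.1, -3.48) and SLITRK5 (477 to 44.4, -3.03), the kinase DYRK3 (1368 to 185, -2.79) and the ion exchanger SLC8A2 (334 to 60.7, -2.25) were also higher in RA-labelled arrays.

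Pregnancy-specific glycoproteins, secreted by placental trophoblast, were lower as a family: 7 of 9 genes measured were called lower and 0 higher. PSG1 read 404, 431 and 355 against 14.9, 15.8 and 47.1 (-3.38 ± 0.29), PSG4 656, 657 and 708 against 83.9, 117 and 78.3 (-2.68 ± 0.14), and PSG3 (70.8 and 14) and PSG11 (53.2 and 28.2) were not called. These genes are near-identical copies whose probes can share transcripts, so the 7 are not independent. Other falls were in the matrix enzyme LOXL4 (3665 to 501, -2.84), the nicotinamide methyltransferase NNMT (2440 to 423, -2.49), the pyrimidine-degrading DPYD (1091 to 182, -2.50), TNFAIP6 (289 to 24.9, -2.91), the leukocyte membrane gene LAPTM5 (1087 to 219.9, -2.23) and LDB2 (1230 to 248, -2.24). CARNS1 (247 to 20.3), C5orf46 (312 to 28.9), MAP3K7CL (226 to 27.4), WFDC21P (312 to 43.4) and ADGRE5 (373 to 44.0) completed the group with MYL4. The call of ADGRE5 was lost with a pseudocount of 1 (adjusted p = 0.0508). MYL4, an atrial and embryonic myosin light chain, read 2364, 1933 and 1045 against 342, 356 and 336 (-2.24 ± 0.26), so its RA-labelled arrays spread more than 2-fold.

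BMP signalling genes shifted towards the Dox-labelled arrays, with 13 of 20 higher, 4 lower and a median of 0.66. The immediate BMP targets ID1 (3386, 3283 and 3276 against 11303, 11977 and 10509; 1.76 ± 0.09) and ID2 (2144 to 7359, 1.78 ± 0.10) were higher, as were MSX2 (531 to 2678, 2.31 ± 0.14) and the decoy receptor BAMBI (3949 to 12527, 1.67 ± 0.08), which BMP induces. The ligand BMP2 went from 492 to 1184 (1.24 ± 0.10). The 4 lower genes were the BMP blockers GREM1 and NOG (1153 to 609, -0.91 ± 0.15) and the receptors BMPR1B (648 to 282, -1.15) and BMPR2 (7735 to 4437, -0.80).

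Nodal and TGF-beta signalling went mainly the other way, with 11 of 24 lower, 4 higher and a median of -0.26. LTBP2, a binding protein of the matrix, read 6813, 7177 and 8048 against 2141, 2116 and 2250 (-1.75 ± 0.09), and the activin blocker FST 3384, 3298 and 3074 against 1015, 1072 and 1130 (-1.59 ± 0.07). The activin subunit INHBA was the largest exception (449 to 2714, 2.56 ± 0.18, adjusted p = 6.76e-06). The Nodal inhibitor LEFTY1, at 26512 at d0, was at 348 and 150.3 (-1.14), and TGFBR2 went from 1476 to 737 (-0.99). TGF-beta ligand genes TGFB1 (2761 and 2343) and TGFB2 (7470 and 7808) were not called. The higher count was 2 with the mean over probe sets, the replicate block or the day 6 arrays alone, and without RA-labelled replicate 3 or Dox-labelled replicate 1. NODAL (62.1 to 126, adjusted p = 0.0481) lost its call without any single array other than Dox-labelled replicate 2, with adjusted p up to 0.158.

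WNT, FGF and Notch genes had members called in both directions. The shares higher were 27.3%, 36.4% and 31.6% in that order, beside 13.7% of all genes. Those lower were 18.2%, 18.2% and 21.1%, beside 12.2%, and for FGF and Notch genes they did not hold without some single arrays. Of 33 WNT genes 9 were higher and 6 lower: WNT4 and the receptor FZD4 (364 to 1500, 2.0 ± 0.13) were higher, while SP5 (96.8, 139 and 130.2 against 20.3, 3.21 and 8.57; -2.41 ± 0.24) and NKD1 (169 to 55.3, -1.46), which WNT signalling through beta-catenin induces, were lower, and AXIN2 (639 and 649.9), another such target, was not called and LEF1 (477 to 794, 0.72), one more, was higher. Of 22 FGF genes 8 were higher and 4 lower (2 lower without Dox-labelled replicate 2 or under median centring), with SPRY1, a feedback inhibitor, at 181 and 464 (1.29), FGF13 at 709.8 and 1889 (1.39) and IL17RD at 2319 and 1320 (-0.80). Of 19 Notch genes 6 were higher and 4 lower (2 lower without RA-labelled replicate 3 or Dox-labelled replicate 1), among them the target HEY1 (1183 to 3171, 1.41), the ligand DLL1 (22.8 to 85.4, 1.35) and LFNG, which modifies Notch (621 to 255, -1.24).

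Epithelial genes were higher in the Dox-labelled arrays, 16 of 23 with 4 lower and a median of 0.90. CDH1, the gene of E-cadherin, read 1534, 1395 and 1365 against 5839, 6129 and 5137 (1.98 ± 0.08, adjusted p = 1.81e-07), from 13191 at d0. The tight junction gene CLDN10 read 526, 412 and 372 against 3291, 3402 and 3311 (2.90 ± 0.11), the splicing regulator ESRP1 248, 160.5 and 124 against 1240, 1289 and 994 (2.66 ± 0.20), and RAB25 161, 192 and 73.1 against 864, 796 and 729 (2.45 ± 0.26). Keratin genes KRT19 (1319 to 4938, 1.89), KRT8 (9775 to 20280, 1.05) and KRT18 (23627 to 34262, 0.54) were higher too, while CLDN6 (-0.65) and DSG2 (-0.56) were lower.

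Matrix and mesenchyme genes were divided, with 10 of 36 higher and 14 lower (median -0.12). POSTN, the gene of periostin, read 1275, 979.9 and 872 against 10664, 10386 and 11485 (3.38 ± 0.13), and TWIST2 (28.4 to 114, 1.52), DCN (74.4 to 226, 1.36) and TIMP3 (3881 to 8459, 1.12) were higher. The collagen VI genes COL6A1 (5418 to 3208, -0.76 ± 0.08), COL6A2 (908 to 544, -0.72) and COL6A3 (2350 to 1320, -0.82 ± 0.11) were lower together, as were LOXL1 (10020 to 5073, -0.98 ± 0.07) and BGN (2777 to 1292, -1.09). COL1A1 (36524 and 37199), COL1A2 (34859 and 34850), VIM (28660 and 26786) and CDH2 (17030 and 15361) were not called. The smooth muscle genes TAGLN (11696 and 12270) and CNN1 (3935 and 4440) were not called. In that list 3 of 17 were higher (17.6%) and 2 lower (11.8%), beside 13.7% and 12.2% of all genes. The higher count was 1 without RA-labelled replicate 3 or without any single Dox-labelled array.

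Neural crest genes were higher in 13 of 23 cases and lower in 1, with a median of 0.83; the lower count was 0 without Dox-labelled replicate 2 and 2 without RA-labelled replicate 3. SOX9 read 498, 574 and 551 against 2541, 2990 and 3110 (2.38 ± 0.11, adjusted p = 4.27e-07), TFAP2A 372, 384 and 471 against 2206, 1907 and 1587 (2.17 ± 0.12), and NGFR 69.7, 88.1 and 61.7 against 357, 349.6 and 384 (2.10 ± 0.33). The groups were apart in all 3, yet the crest-defining genes SOX10 (23.8 and 68.4) and FOXD3 (27.1 and 6.54) were not called and SNAI2 (2264 and 2366) did not pass either. DLX2 (424 to 1591, 1.88), DLX5 (22.3 to 143, 2.10) and DLX6 (16 to 130.4, 2.17), also genes of placodes and limb, were higher; DLX2 lost its call with the mean over probe sets (adjusted p = 0.079).

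Cardiac and lateral mesoderm genes were higher in 12 of 23 and lower in 2 (median 0.75). GATA6 read 1704, 1595 and 1442 against 8127, 8143 and 7825 (2.34 ± 0.10, adjusted p = 1.98e-07), TBX3 142, 169 and 100.2 against 705, 862 and 548 (2.24 ± 0.18), and FOXF1 went from 49.1 to 213 (2.0). Heart genes were divided. NKX2-5 (19.0 and 15.2), TBX20 (9.21 and 12.9) and HAND2 (3.70 and 11.4) stayed near or under 20 and were not called. GATA5 (1.93 ± 0.45), TBX5 (1.0 ± 0.29), MEF2C (1.18 ± 0.25), MYL7 (1.02 ± 0.15), NPPB (1.05 ± 0.09) and ACTC1 (0.41 ± 0.06) were higher. The call of GATA5 was lost with a pseudocount of 1 (adjusted p = 0.0563). That of TBX5 was lost without RA-labelled or Dox-labelled replicate 1 or 2 (0.069 to 0.107). The 2 lower genes were MYL4 and TNNI1 (52.0 to 13.8, -1.22). Most primitive streak genes were not called: TBXT read 87.9 and 79.6, MIXL1 4.91 and 10.3 and GSC 1.52 and 1.41. Of 15, 2 were higher (MEOX1 and PDGFRA, 13.3%) and 1 lower (EOMES, 6.67%), beside 13.7% and 12.2% of all genes.

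Markers of other lineages were mixed. Several shares were near those of all genes, 13.7% higher and 12.2% lower. They were the higher share of liver and yolk sac (16.7%) and germ cell genes (15.4%), and the lower share of endoderm (14.3%) and trophoblast and amnion genes (12.5%). Of 14 endoderm genes 4 were higher and 2 lower (1 lower without RA-labelled replicate 1 or 3 or Dox-labelled replicate 2 or 3), with FOXA1 at 20.5 and 192 (2.55), while SOX17 (65.4 and 66.8) and FOXA2 (41.3 and 68.0) were not called. Of 18 liver and yolk sac genes 3 were higher, APOA2, FGB (67.1 to 406) and FGG (21.8 to 289); the call of APOA2 was lost without Dox-labelled replicate 1 (adjusted p = 0.072) or 2 (0.0829), and AFP (1517 and 1429) was not called. Of 24 trophoblast and amnion genes 9 were higher and 3 lower. GATA3 went from 2682 to 5428 (1.01), KRT7 from 1831 to 5024 (1.45) and IGFBP3 from 2448 to 26620 (3.47 ± 0.17), against the falls of the 3 PSG genes, while GCM1 (3.83 and 4.41) was under 16. Without RA-labelled replicate 3 the lower count was 5. Of 18 endothelial and blood genes 5 were higher and 1 lower, LMO2 at 172 and 1242 (2.74 ± 0.15) and TIE1 at 500.5 and 111 (-2.03 ± 0.28), with PECAM1 (142 and 125) and CDH5 not called. Germ cell genes showed 2 of 13 higher, with DDX4 (1.81 and 3.16) near 0, and 4 of 12 surface ectoderm genes were higher and 1 lower, EYA1 among the former (38.1 to 193, 2.04). The surface ectoderm count was 2 higher without RA-labelled replicate 3 or Dox-labelled replicate 1 or 2, and 0 lower with a trended robust variance.

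**Figure D4:**
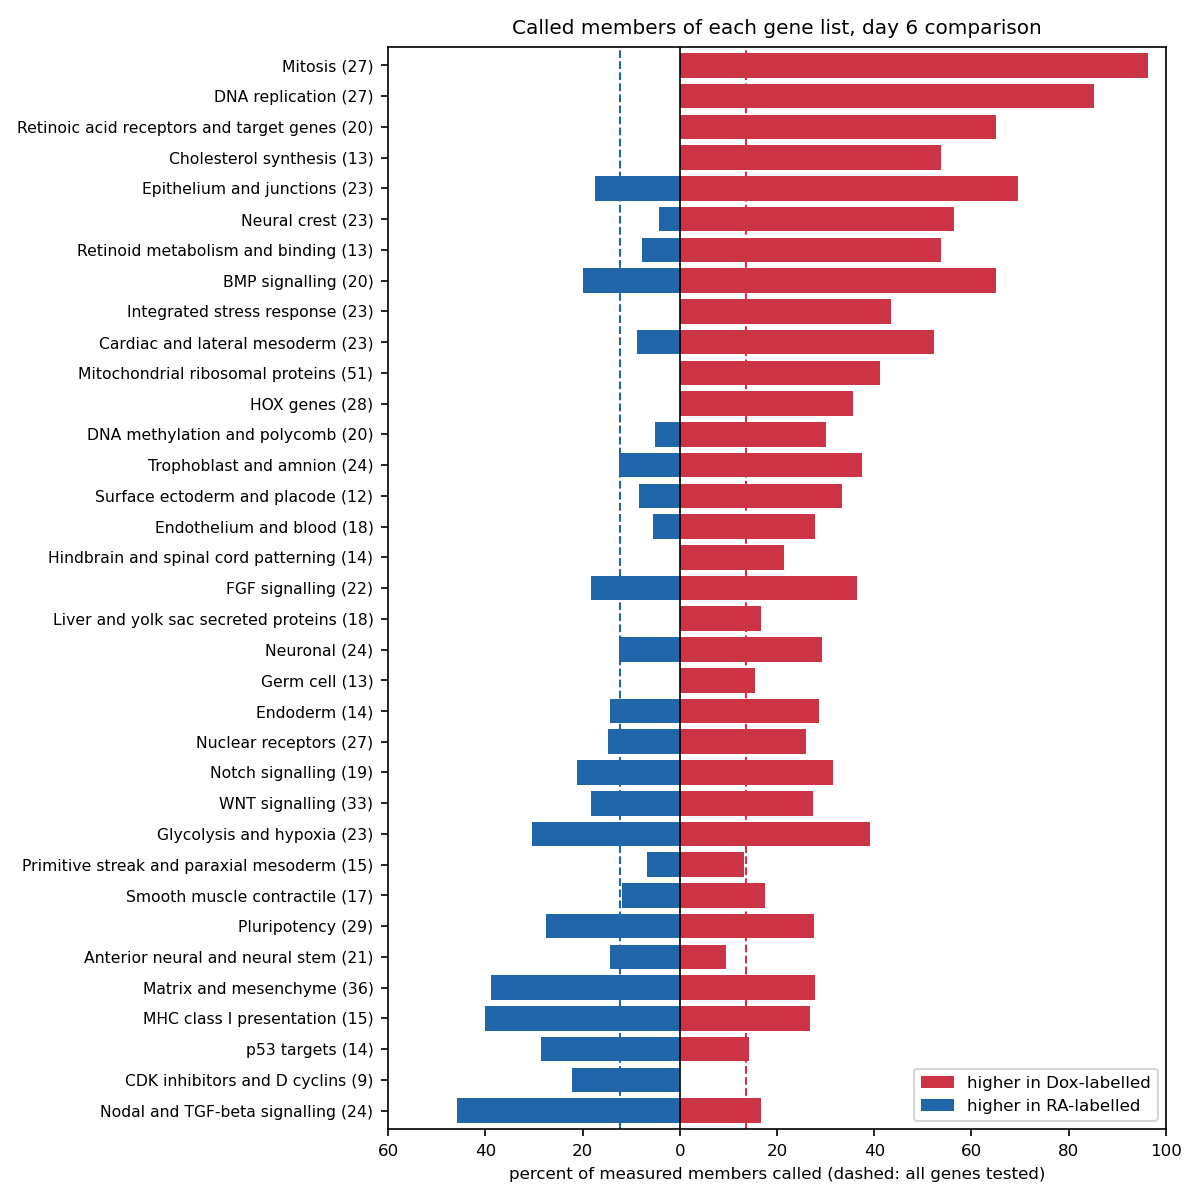
Percent of the measured members of each of 35 gene lists called higher in Dox-labelled (red, right) or in RA-labelled arrays (blue, left), with the number measured in parentheses; dashed lines mark all genes tested (13.7% and 12.2%). Mitosis genes (96.3%) and DNA replication genes (85.2%) have the longest bars to the right and Nodal and TGF-beta genes (45.8%) the longest to the left.

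Cell cycle genes were higher in the Dox-labelled arrays almost without exception. Of 27 mitosis genes 26 were higher and 0 lower, 16 of them by at least 2-fold (median 1.08), and of 27 DNA replication genes 23 were higher and 0 lower (median 0.72). TOP2A, which untangles chromosomes, read 1000, 858 and 837 against 2826, 2581 and 2323 (1.5 ± 0.09, adjusted p = 2.74e-06). CCNB2, a mitotic cyclin, read 1035, 866 and 874 against 2647, 2579 and 2231 (1.41 ± 0.10), and the replication helicase gene MCM2 732, 704 and 648 against 1704, 1750 and 1459 (1.22 ± 0.09). All were far below d0 in both groups, TOP2A at 6897, CCNB2 at 5476 and MCM2 at 3669. PLK1 (104 and 149) was the mitosis gene not called.

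CDK inhibitors, which brake the cell cycle, and D cyclins, which drive its first phase, were counted together. Of 9 CDK inhibitor and D cyclin genes 2 were lower, CDKN1C (1947, 2224 and 1876 against 1057, 1140 and 1026; -0.90 ± 0.10) and CCND3 (1917 to 1059, -0.85), the latter not with the mean over probe sets (adjusted p = 0.172). CDKN1A (7874 and 5652), CDKN2A (1208 and 1849) and CDKN2B (6857 and 6763) were above d0 in both groups and were not called. With genes above the median mean only, or with a trended robust variance, this list had 4 lower. Of 14 p53 targets 2 were higher (MDM2, 4469 to 7958, and GDF15, 4306 to 6864) and 4 lower, among them FAS (2399 to 1241, -0.94). The higher share was 14.3%, beside 13.7% of all genes.

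Metabolic and stress genes moved by smaller amounts. Of 51 mitochondrial ribosomal protein genes 21 were higher and 0 lower, with a median of 0.23; the largest was MRPL11 (730.2 to 1330, 0.85). Of 23 integrated stress response genes 10 were higher and 0 lower (median 0.27), led by STC2 (1910 to 4280, 1.16), with DDIT3 (669 and 754) and TRIB3 (1697 and 1620) not called. Cholesterol synthesis genes were higher in 7 of 13 and lower in 0, among them HMGCS1 (988 to 1657, 0.74), a count of 3 without Dox-labelled replicate 1. Glycolysis and hypoxia genes were split, 9 of 23 higher and 7 lower, with the glucose transporters SLC2A1 (3656 to 1500, -1.27 ± 0.12) and SLC2A3 (10821 to 18470, 0.77) in opposite directions; the higher count was 5 without Dox-labelled replicate 1 or 3.

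Antigen presentation and chromatin genes were also split. Of 15 class I genes 4 were higher and 6 lower: the immunoproteasome gene PSMB9 read 16.9, 8 and 29 against 168, 196 and 119 (2.41 ± 0.30), while HLA-E (4917 to 3288, -0.58) and HLA-G (5118 to 3655, -0.48) were lower. Of 20 DNA methylation and polycomb genes 6 were higher and 1 lower, MBD2 leading (327 to 749.5, 1.15) and the lower count at 0 without Dox-labelled replicate 1, with DNMT3A (2808 and 2530) and JARID2 (1853 and 1867) not called. Among 27 nuclear receptors 7 were higher (25.9%) and 4 lower (14.8%), beside 13.7% and 12.2% of all genes. The former included NR5A2, NR2F1 and PPARG (108 to 429, 1.84), and the call of PPARG was lost with a pseudocount of 1 (adjusted p = 0.127). They also included NR6A1 (0.89), whose sign turned with the mean over its probe sets (-0.47). The 4 lower included ESRRA (-0.35), whose sign also turned with that mean (0.06, adjusted p = 0.875).

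Genes that responded to doxycycline at d0, where all NR6A1 probe sets but 1 were called higher with it, were then looked up at day 6; the d0 comparison shares no array with the day 6 one. At d0, 2552 genes were called with doxycycline (12.9%), 226 at least 2-fold higher (1.14%) and 139 at least 2-fold lower (0.703%). Of the 226, 78 (34.5%) were higher and 45 (19.9%) lower in the Dox-labelled day 6 arrays, with a median of 0.14, beside 13.7% and 12.2% of all genes. Of the 139, 37 (26.6%) were higher and 24 (17.3%) lower, with a median of 0.05. With genes of any size of change, those higher at d0 leaned the other way from the 226. Of the 1532 called higher at d0, 21.7% were higher and 29.2% lower at day 6 (median -0.08). Those lower at d0 leaned the same way as the 139: of 1020, 32% were higher and 17.3% lower (median 0.1). Each of these directions turns with the day 6 labels, which retinoid genes and part of the NR6A1 probe sets run against. The day 6 difference departed from the d0 difference for 4794 of all genes (24.2%) in limma's test of the difference itself, or for 3585 with the day 6 sign turned.

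The genes with the strongest d0 response went separate ways at day 6. GALNT16, up from 148 to 2694 with doxycycline at d0 (4.05), was lower in the Dox-labelled arrays at day 6 (-4.51). LIX1, a developmental gene up from 20 to 497 at d0 (3.86), read 129, 96.4 and 92.3 in RA-labelled and 32, 22 and 21.7 in Dox-labelled arrays (-1.56 ± 0.18). SLITRK5 (90.8 to 799 at d0), DYRK3 (116 to 643) and the protocadherin gene PCDH8 (437 to 2737) were likewise lower at day 6, by -3.03, -2.79 and -2.26. In contrast, PKDCC, a secreted kinase up from 559 to 6082 at d0 (3.42), read 1098, 798 and 753 against 5542, 5644 and 4765 (2.58 ± 0.15), and MEIS2, up from 252 to 2270 at d0, was 2.64 higher. LAMP5 (9.12 to 200.3 at d0) was 1.5 higher.

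Others of the d0 set with large day 6 rises were IRX3, SEMA6D, DACH1 (3.51), the endocytic receptor LRP2 (3.16), DHRS3 and CRABP2. LRRN3, up from 109.9 to 1225 at d0, read 215 and 177 (-0.26, adjusted p = 0.0456), a call that was lost under median centring (adjusted p = 0.129) and without any single array other than Dox-labelled replicate 2 (up to 0.159). Of the genes that fell most at d0, NODAL (4240 to 567) and DACT1 (3325 to 610.5) were higher at day 6 by 0.81 and 0.93, GNA14 (897 to 197) was lower (-1.68 ± 0.13), and EBF2 (9.85 and 11.7), LINC01844 (40.8 and 42.4) and ZDHHC22 (17.9 and 28.0) were not called.

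**Figure D5:**
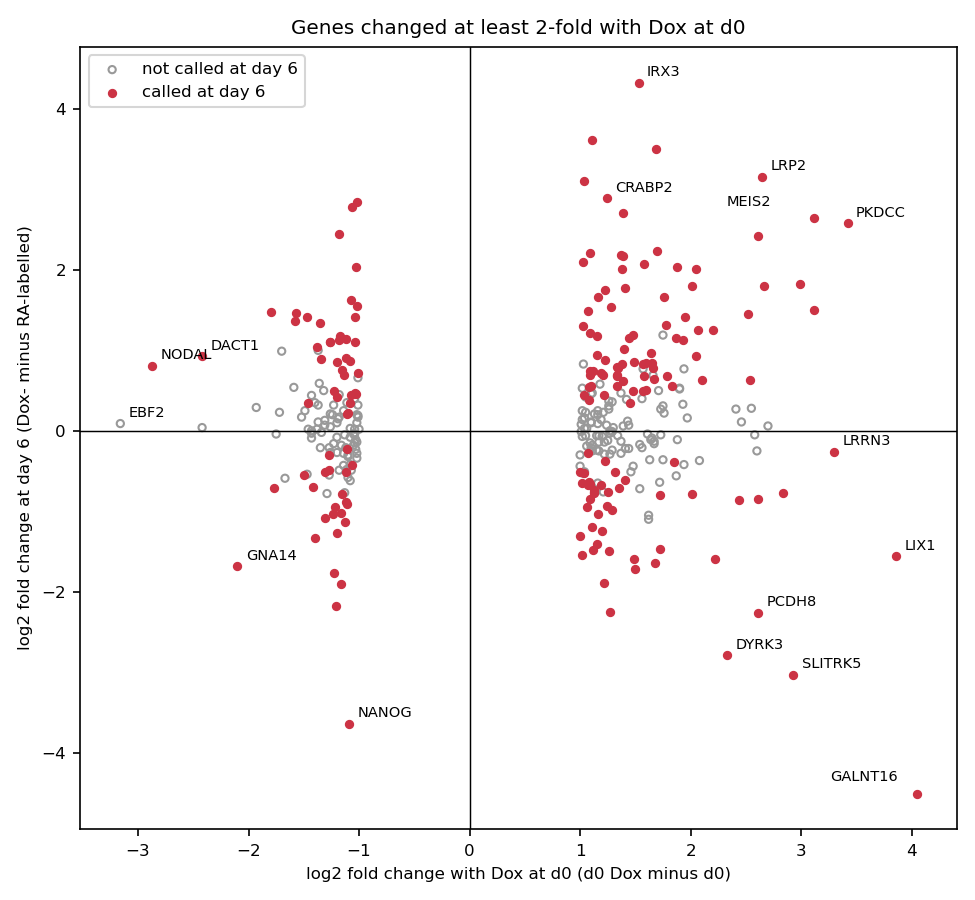
Each point is 1 of the 365 genes changed at least 2-fold with doxycycline at d0, placed by its log2 fold change at d0 (horizontal) and between Dox-labelled and RA-labelled arrays at day 6 (vertical); filled points were called at day 6. GALNT16 lies at 4.05 and -4.51 and MEIS2 at 3.12 and 2.64, so genes with a large d0 rise fall on both sides of the horizontal line.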

How the data were processed

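RNA of 12 H9 samples, 3 in each of 4 groups, was measured on 1-colour Affymetrix arrays with 54675 probe sets. The deposited values are intensities on a linear scale, 1 per probe set and array; their 2% trimmed mean is 500.1 on every array, so the arrays had been scaled to a common level. The authors' background correction and summary method are not given in the sources used here, and precision is limited by how many arrays there are. At day 6, 24.7% to 26.5% of probe sets read under 16, where changes are compressed by the added 16.

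Of the probe sets, 41097 carried 1 gene symbol in the platform annotation, 1801 several and 11777 were not listed; 41043 matched a RefSeq gene. Each of 19775 genes was represented by its probe set with the highest mean over all arrays. The log2(intensity + 16) values of all 12 arrays were fitted with limma 3.58.1 (R 4.3.3; lmFit and eBayes, 8 residual degrees of freedom), contrasts were taken between groups, and p-values were adjusted by Benjamini-Hochberg over all genes; those for NR6A1 and POU5F1 with its copies were fitted over all probe sets. In data simulated with the means and spread of all 12 arrays, changes were planted in a small share of genes, all at or above the median mean. Of 50 such genes at each size, 6 changed 1.25-fold, 31 changed 1.5-fold and 49 changed 2-fold were recovered. Recovery of dimmer genes, or with as many changed genes as in the data, was not simulated. Summaries, the promoter search and figures used python 3.11.15, numpy 2.4.6, pandas 2.3.3 and matplotlib 3.10.9.

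Genes were named by rule: the 25 largest rises and falls among called genes with no overlap between groups and at least the median brightness; members of 35 gene lists; and the largest day 6 and d0 changes among genes changed 2-fold at d0. The comparison, the gene lists and the repeats searched were chosen with earlier results of these data known. The processing was varied by median centring, quantile normalization, the mean over probe sets, genes above the median mean, pseudocounts of 1 and 64, a trended robust variance, a replicate block, the arrays of a comparison alone, and leaving out each array. Arrays with the same replicate number did not deviate together at day 6 (correlations -0.001, 0.012 and 0.032).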

Additional observations from a re-analysis of the deposited data

Results flagged for a closer look

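Of 23 named genes that doxycycline had changed at least 2-fold at d0, 20 were called at both times, and 9 of the 20 had opposite directions at d0 and day 6 as labelled. The day 6 direction is the one that retinoid genes and part of the NR6A1 probe sets run against, while other NR6A1 probe sets go with it. With the day 6 sign turned, the other 11 of the 20 were opposite instead. The genes were picked for large changes at d0 or day 6, so that they pass limma's test of the difference between the differences adds no support. As labelled, the day 6 minus d0 difference was -8.57 on the log2 scale for GALNT16, -5.96 for SLITRK5, -5.42 for LIX1, -5.12 for DYRK3, -4.87 for PCDH8 and -3.51 for SLC8A2. With the sign turned, an alternative chosen after seeing the data, these were 0.46, 0.1, -2.3, 0.46, -0.35 and 0.98. The difference was -3.57 for LRRN3, 3.67 for NODAL and 3.35 for DACT1 as labelled, and -3.04, 2.06 and 1.49 with the sign turned; the day 6 calls of LRRN3 and NODAL were lost without single arrays. For each of the other 11 genes the difference was larger in size with the sign turned. Arithmetic fixes this, since a turned sign enlarges the difference of genes with 1 direction at both times and shrinks that of the 9. These sizes therefore carry no weight on whether the labels are right. As labelled and then turned, the difference was -0.83 and -6.0 for PKDCC, -0.48 and -5.75 for MEIS2 and 0.51 and -5.81 for LRP2. For IRX3 it was 2.79 and -5.86, for DACH1 1.83 and -5.2 and for NANOG -2.55 and 4.73. By the labels, doxycycline is set against retinoic acid at day 6 and against no agent at d0, so the controls differ.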

How the results depend on the processing

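The day 6 count of 5120 called genes ran from 4043 to 4490 when single arrays were left out (2174 to 2412 higher, 1869 to 2078 lower), and the genes changed at least 2-fold from 724 to 773 higher and from 377 to 412 lower. Testing genes above the median mean only left 363 higher and 163 lower by 2-fold, since fewer genes were tested, and a pseudocount of 64 left 493 and 190. The d0 count of 2552 ran from 1786 to 2323 without single arrays (1060 to 1422 higher, 692 to 901 lower), was 1522 (891 higher, 631 lower) with the d0 arrays alone, and its higher part was 967 with the mean over probe sets; the cause was not tested. The count for the difference between both comparisons ran from 4014 to 4567 without single arrays and was 3585 with the day 6 sign turned, chosen after seeing the data. With the replicate number as a block 4901 genes were called at day 6, 2296 at d0 and 4560 for the difference. With the mean over probe sets the log2 change reversed and was called for NR6A1 (-0.47, adjusted p = 0.00625). The sign also turned for ACTA2 (-0.01, adjusted p = 0.97), ESRRA (0.06, 0.875) and CBX2 (-0.04, 0.906), but their calls were lost. Of 411 genes the naming rule took in, 103 lost their call with the sign kept under at least 1 alternative, 69 of them without some single array. Among the 50 largest changes ADGRE5 alone did, with a pseudocount of 1. HOXB7 (adjusted p = 0.0686) and FGB (0.0635) lost theirs with that pseudocount too. Above the median mean only, 8 retinoic acid targets, 1 HOX gene, 8 neural crest genes and 5 cardiac genes were called higher, because dim members were not tested. The listed NR6A1 and POU5F1 family probe sets that were called kept direction and call under the alternatives run. The NR6A1 probe set that was not called (13.2 and 7.94) stayed uncalled, but its direction turned without RA-labelled replicate 3.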
